A study of Mus musculus with 6 samples.

Results

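The 48 genes described here encode the machinery of mitosis: the mitotic cyclins and the kinase they switch on, the other mitotic kinases, the spindle checkpoint, the proteins that trigger anaphase, the centromere and kinetochore, the spindle motors, the cytokinesis proteins and the condensins. They were chosen by name, and all 48 were found among the 36706 genes of the deposited tables. RNA was sequenced from mouse dendritic cells of wild-type genotype, grown from bone marrow with 20 ng/mL GM-CSF and fresh medium on day 3 and day 5. GM-CSF is a myeloid growth factor, and such a culture starts from dividing cells and can hold several cell types. One group of 3 libraries came from cells given IFN-γ (interferon gamma). The other group of 3 came from cells given IFN-γ together with 4-OI (4-octyl itaconate, a cell-permeable derivative of the metabolite itaconate). No library lacked IFN-γ, so every difference below is one between IFN-γ with and without 4-OI. Neither the dose nor the duration of an agent is labelled, nor is an animal or a batch. The sample titles call the cells macrophages, whereas their cell type entry and the protocol call them dendritic cells.

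Mitosis is driven by cyclin-dependent kinase 1 bound to cyclins A and B. Aurora and polo-like kinases build the spindle, and the checkpoint holds the anaphase-promoting complex (APC/C) in check until every kinetochore is attached to microtubules. The genes are transcribed late in the cell cycle, largely under the MuvB core with MYBL2 and FOXM1, which act at a promoter element called the cell cycle genes homology region (CHR), and under the factor NF-Y at CCAAT boxes. In resting cells the DREAM complex binds the same CHR and keeps the genes off. Marrow precursors divide rapidly and mature dendritic cells seldom do.

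Promoter stretches are shown for 6 genes, because the members moved together and because 2 of them did not. The RefSeq table of GRCm38.p6 held windows from 250 bases before to 50 bases after the annotated start for 40 of the 48 members, 42 windows in all. Each stretch covers bases -120 to -1 before the start, written 5′ to 3′ on the gene's strand, and capitals mark matches to TTTGAA or TTTAAA (CHR), CCAAT (NF-Y) and TTCCCGC (an E2F core), searched on both strands.
Ccnb1 (chr13:100786487-100786606, minus strand): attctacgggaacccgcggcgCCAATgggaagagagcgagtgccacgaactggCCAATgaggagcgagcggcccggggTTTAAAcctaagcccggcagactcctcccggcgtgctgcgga
Cdk1 (chr10:69352913-69353032, minus strand): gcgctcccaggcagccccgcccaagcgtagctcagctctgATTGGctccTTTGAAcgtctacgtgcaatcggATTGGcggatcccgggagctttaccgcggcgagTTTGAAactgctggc
Cdc20 (chr4:118437344-118437463, minus strand): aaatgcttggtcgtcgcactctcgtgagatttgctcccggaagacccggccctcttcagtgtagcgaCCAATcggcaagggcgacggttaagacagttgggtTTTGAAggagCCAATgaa
Top2a (chr11:99024190-99024309, minus strand): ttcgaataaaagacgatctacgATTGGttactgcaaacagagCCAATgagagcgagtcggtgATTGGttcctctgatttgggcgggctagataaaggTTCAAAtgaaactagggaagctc
Spc25 (chr2:69206214-69206333, minus strand): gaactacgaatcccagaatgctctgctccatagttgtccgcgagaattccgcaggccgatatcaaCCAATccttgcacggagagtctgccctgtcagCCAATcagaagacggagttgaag
Pttg1 (chr11:43425982-43426101, minus strand): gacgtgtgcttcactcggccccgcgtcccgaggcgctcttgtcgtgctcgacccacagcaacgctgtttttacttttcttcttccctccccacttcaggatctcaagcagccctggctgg

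The first 4 genes fell with 4-OI, and each stretch holds a CHR match with at least 1 CCAAT box beside it. Spc25 and Pttg1 were the 2 members that were higher with 4-OI. The Spc25 stretch holds CCAAT boxes, and a TTTGAA begins at base 25 after its start, while the Pttg1 window holds none of the letters searched for. Over the whole windows, 83.3% of the 42 member windows held TTTGAA or TTTAAA, against 20.3% of the 14097 windows of the other tested genes and 27.6% of all 32851 windows in the table. CCAAT was in 81.0% of member windows, against 37.1% of those of other tested genes. Both elements together were in 73.8%, against 7.68% of those of other tested genes and 10.7% of all windows. At least 2 CCAAT boxes were in 21 of the 42, against 13.6% of those of other tested genes. The E2F core was in 2.38%, against 7.75%. Capitals include the reverse complements TTCAAA and ATTGG. Where a member had both, in 29 genes, the nearest CCAAT and CHR matches began 25.0 bases apart at the median, with a range of 5 to 153, and 14 of the 29 lay between 20 and 40 bases apart. TTTAAA reads the same on both strands and was counted once, and 1 pair of matches to different motifs overlapped in the member windows. The 29 members with both had a median log2 fold change of -2.11 and the 11 without both one of -2.18. Mad2l1, Nuf2 and Nusap1 fell and, like Pttg1, had neither in their windows. A match is a string of letters and was not measured as a bound site.

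The libraries held 19656368 to 29244717 counts, at which 3 counts correspond to 0.103 to 0.153 CPM (a count relative to its library's total). Levels below are CPM scaled by TMM factors, which correct for differences in RNA composition, and tests are edgeR's quasi-likelihood test with Benjamini-Hochberg adjustment over all 14011 genes tested, called at an adjusted p of 0.05. Whether replicates are separate cultures is not labelled, and p-values reflect only how far these libraries scatter, which can be technical. IFN-γ replicate 1 stood apart from the other IFN-γ libraries on the second principal component, at 32.0 against -19.1 and -16.8. The libraries with 4-OI were spread on it too, with replicate 3 at -14.4 against 12.4 and 5.84. Without TMM factors, scaling by library totals gave 1719 genes higher and 5452 lower with 4-OI, against 3181 and 3555 with TMM factors, and the median log2 fold change of all tested genes was -0.27 instead of -0.01.

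With 4-OI, 46 of the 48 mitotic genes fell and 2, Spc25 and Pttg1, rose. Among all genes tested, 25.4% were called lower and 22.7% were called higher. The 48 genes together took 0.210%, 0.177% and 0.178% of the counts in the IFN-γ libraries and 0.0526%, 0.0527% and 0.0489% in those with 4-OI. The median log2 fold change of the members was -2.16, and 43 of 48 were called and at least 2-fold lower, against 11.1% of all genes tested. For all 46 that fell, the lowest IFN-γ library lay above the highest library with 4-OI, which held for 30.6% of all genes tested. Every member had at least 10 counts in every library, so no member was tested on the strength of one group alone. In bulk RNA, fewer dividing cells and less of these messages per dividing cell cannot be told apart.

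**Figure D1:**
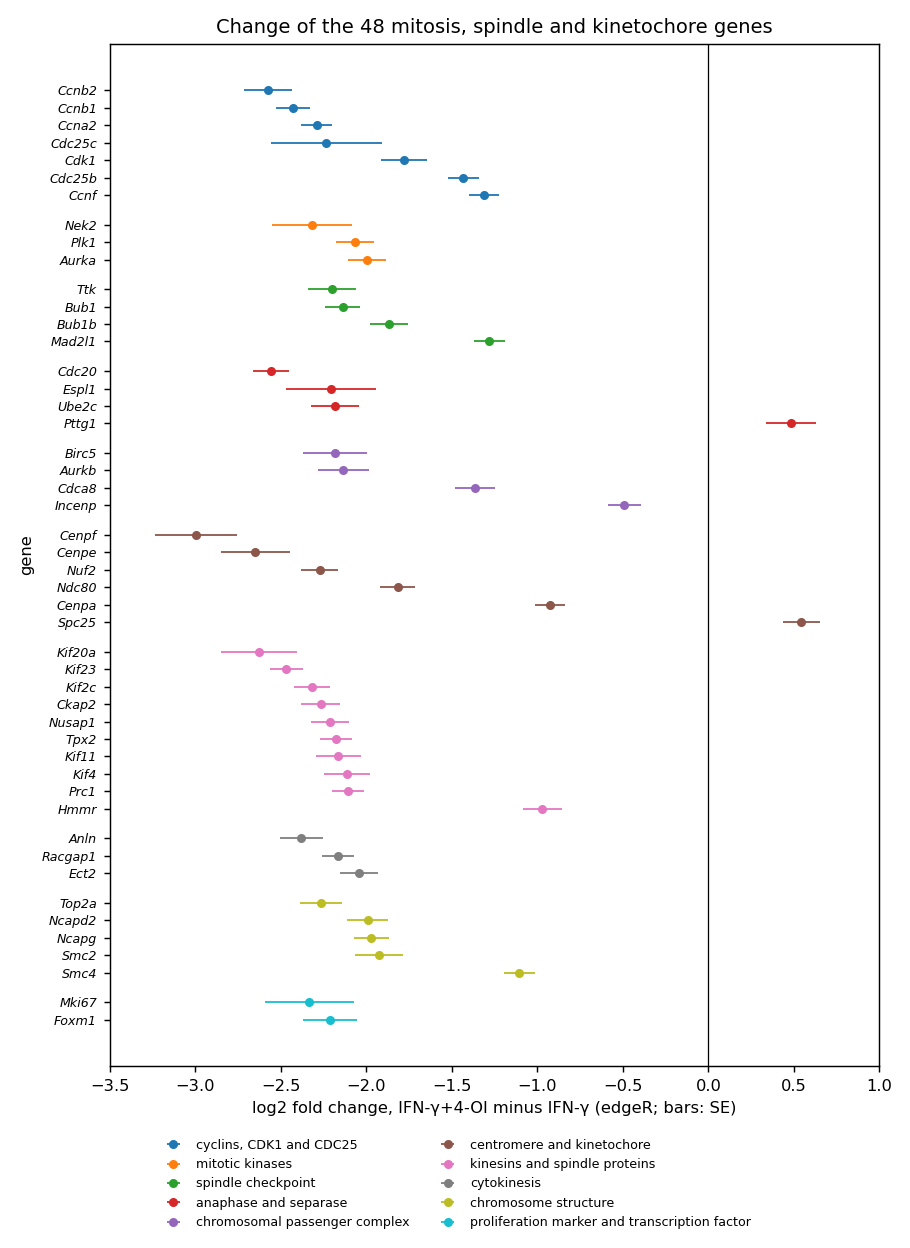
Log2 fold change (IFN-γ+4-OI minus IFN-γ, horizontal axis) of each of the 48 members by class, with points for the edgeR estimate and bars for its SE. Most lie near the median of -2.16, Incenp, Cenpa and Hmmr lie above -1, and Pttg1 and Spc25 lie right of 0.

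Among the cyclins and the regulators of cyclin-dependent kinase 1, all 7 fell, with a median log2 fold change of -2.23. Ccnb2, which encodes cyclin B2, a partner of that kinase, stood at 25.0, 32.5 and 32.2 CPM with IFN-γ and at 4.50, 5.07 and 5.44 CPM with 4-OI. Every IFN-γ library was more than 4 times as high as any library with 4-OI, and the fitted fall was 5.95-fold (log2 fold change -2.57 ± 0.14, SE; edgeR adjusted p = 6.46e-06). Ccnb1 and Ccna2, the genes of cyclins B1 and A2, fell 5.38-fold and 4.89-fold. Cdk1, the kinase gene itself, fell 3.43-fold, from 33.4 ± 5.21 to 9.72 ± 0.668 CPM (SD, n = 3). The phosphatase genes Cdc25b and Cdc25c, whose products remove the inhibitory phosphates from the kinase, had log2 fold changes of -1.43 ± 0.09 and -2.23 ± 0.32. Ccnf, the gene of cyclin F, a ubiquitin ligase subunit that does not activate a kinase, changed least, from 16.9, 17.5 and 17.7 to 7.27, 7.06 and 6.63 CPM (log2 fold change -1.31 ± 0.09; edgeR adjusted p = 1.69e-05).

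The 3 kinases of spindle assembly and centrosome separation fell together. Plk1, polo-like kinase 1, stood at 16.2, 15.2 and 14.01 CPM with IFN-γ and at 3.69, 3.84 and 3.34 CPM with 4-OI (log2 fold change -2.06 ± 0.11; edgeR adjusted p = 6.06e-06). Aurka, the Aurora kinase of the spindle poles, went from 14.5, 16.5 and 15.0 to 3.80, 3.58 and 4.16 CPM. Both groups were tight for these genes and did not come near each other. Nek2, a centrosome kinase, went from 8.15, 8.69 and 7.13 to 0.922, 1.99 and 1.77 CPM, the lowest value resting on 17 counts.

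All 4 spindle checkpoint genes fell. Ttk, which encodes the kinase MPS1 that starts checkpoint signalling, went from 6.73, 6.31 and 6.07 to 1.41, 1.27 and 1.48 CPM (log2 fold change -2.20 ± 0.14; edgeR adjusted p = 1.19e-05). Bub1 and Bub1b, whose products assemble the checkpoint at kinetochores, fell 4.40-fold and 3.64-fold. Mad2l1 encodes MAD2, which binds and holds CDC20, and its level went from 23.2, 26.6 and 24.5 to 10.1, 10.0 and 10.5 CPM. Its change was the smallest of the class (log2 fold change -1.28 ± 0.09; edgeR adjusted p = 2.27e-05).

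Of the 4 genes of the metaphase to anaphase transition, 3 fell and 1 rose. Cdc20, the activator of the APC/C, went from 17.5, 19.8 and 19.1 to 2.98, 3.40 and 3.17 CPM, a fall of 5.88-fold (log2 fold change -2.56 ± 0.11; edgeR adjusted p = 2.38e-06). Ube2c, the ubiquitin-conjugating enzyme that works with the APC/C, went from 31.9, 43.8 and 43.1 to 8.95, 8.14 and 9.10 CPM. IFN-γ replicate 1 was the lowest IFN-γ library for both genes, and every IFN-γ library was far above every library with 4-OI. Espl1 encodes separase, the protease that cuts cohesin, and fell 4.61-fold, from 8.75 ± 1.60 to 1.91 ± 0.703 CPM (SD, n = 3).

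Pttg1 encodes securin, the inhibitor that holds separase until the APC/C destroys it, and it moved the other way. It stood at 24.8, 34.9 and 32.6 CPM with IFN-γ and at 40.05, 40.1 and 49.0 CPM with 4-OI. The groups did not overlap, and the gap between IFN-γ replicate 2 and the lowest library with 4-OI was smaller than the range within each group. The log2 fold change was 0.48 ± 0.15 (edgeR adjusted p = 0.0259). It was 0.38 without 4-OI replicate 3 (edgeR adjusted p = 0.0935) and 0.22 with total-count scaling (edgeR adjusted p = 0.170), and it was called in the other alternatives at an adjusted p of 0.05. TPM divides by gene length, taken over the merged exons of a gene. It carries no TMM factor, so changes between the groups differ in size from those in CPM. In TPM, securin stood at 24.5 ± 1.61 with IFN-γ and 26.4 ± 0.638 with 4-OI (SD, n = 3). Separase stood at 2.94 ± 0.894 and 0.494 ± 0.212 TPM (SD, n = 3).

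The chromosomal passenger complex, which corrects faulty attachments and later guides cytokinesis, fell unevenly over its 4 genes. Birc5, the gene of survivin, went from 17.3, 23.5 and 22.2 to 3.53, 4.49 and 5.72 CPM (log2 fold change -2.18 ± 0.19; edgeR adjusted p = 5.37e-05). Aurkb, its kinase, fell 4.39-fold and Cdca8, the gene of borealin, 2.57-fold. Incenp, the scaffold that holds the complex together, stood at 52.9, 51.9 and 53.1 CPM with IFN-γ and at 35.8, 42.1 and 34.3 CPM with 4-OI. The groups did not overlap, and the fall was 1.41-fold, the smallest among the 46 that fell (log2 fold change -0.49 ± 0.10; edgeR adjusted p = 0.00407). Across all alternatives its log2 fold change was -0.75 to -0.42.

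Among 6 centromere and kinetochore genes, 5 fell and Spc25 rose, and the spread was the widest of any class, from -3.00 to 0.54. Cenpf, a large outer kinetochore protein, changed most of all members, from 27.7, 17.2 and 18.4 to 3.31, 2.10 and 2.64 CPM (log2 fold change -3.00 ± 0.24; edgeR adjusted p = 3.73e-05). Cenpe, a kinetochore motor, fell 6.26-fold. IFN-γ replicate 1 was the highest library for both, and over all alternatives, that without it included, their log2 fold changes were -3.26 to -2.76 and -2.91 to -2.35. Cenpa encodes the histone H3 variant that marks centromeres, and it went from 83.3, 97.0 and 88.8 to 46.3, 46.5 and 49.1 CPM, a fall of 1.90-fold (edgeR adjusted p = 8.91e-05). Per length it was the most abundant member in both groups, at 119 TPM with IFN-γ and 48.03 TPM with 4-OI.

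The NDC80 complex couples kinetochores to microtubules and is built from 1 copy each of NDC80, NUF2, SPC24 and SPC25. Spc25 stood at 13.97, 15.7 and 17.4 CPM with IFN-γ and at 21.98, 21.8 and 24.8 CPM with 4-OI. Every library with 4-OI was above every IFN-γ library (log2 fold change 0.54 ± 0.11; edgeR adjusted p = 0.00436), and the call was made in each alternative, with 0.28 to 0.63. Its partners Ndc80 and Nuf2 fell 3.52-fold and 4.83-fold, and Spc24, which is outside the 48, fell 4.48-fold, from 6.70 ± 1.23 to 1.49 ± 0.0633 CPM (SD, n = 3; edgeR adjusted p = 4.67e-05). In TPM, Ndc80, Nuf2, Spc24 and Spc25 stood at 16.5, 12.7, 9.48 and 16.5 with IFN-γ, and at 3.57, 2.0, 1.64 and 18.5 with 4-OI. The 4 messages were thus within a factor of 2 of each other with IFN-γ, and with 4-OI that of Spc25 was far above the other 3. In the deposited gene models Spc25 shares 3.90% of its exon bases with Nostrin on the opposite strand, whose counts were 402 to 523 in the IFN-γ libraries and 190 to 278 in the others. Ndc80, Nuf2 and Spc24 were compared after their values had been seen.

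**Figure D2:**
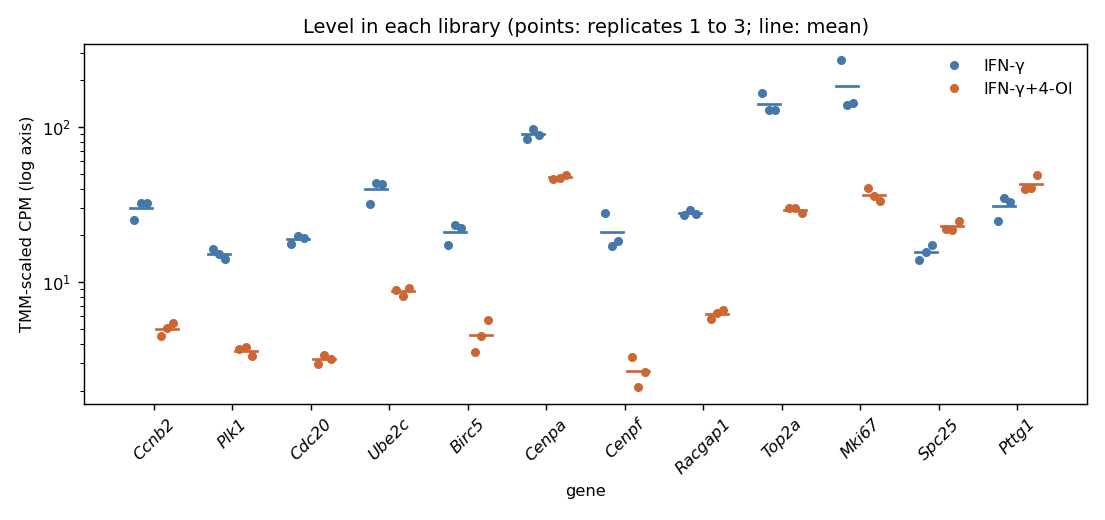
TMM-scaled CPM (log axis) of 12 members in each library, with blue points for IFN-γ, orange points for IFN-γ+4-OI and lines for group means. Groups do not overlap for any of the 12, Spc25 and Pttg1 are the genes with orange above blue, and the highest Mki67 point is IFN-γ replicate 1 at 268 CPM.

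**Figure D3:**
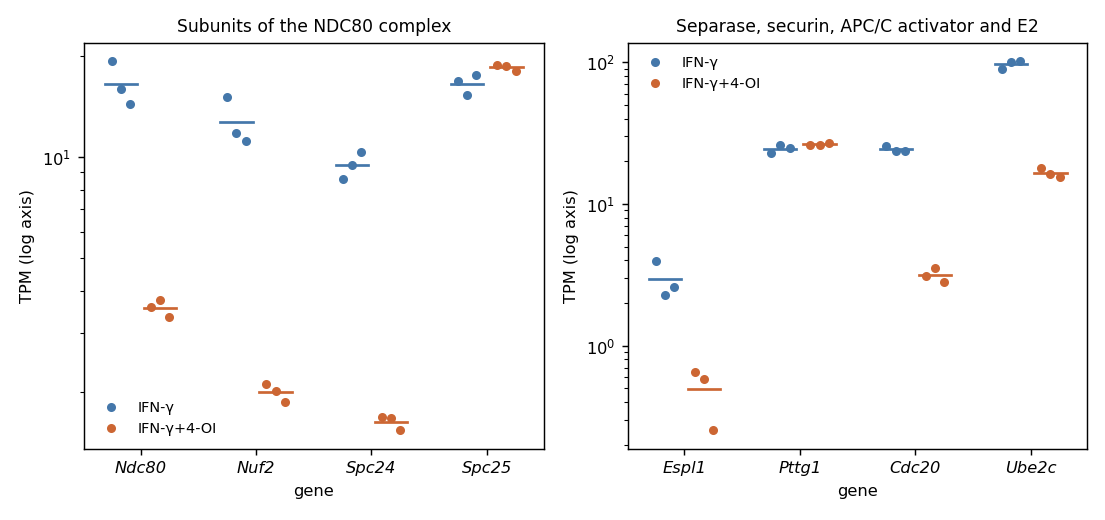
TPM (log axis) of the 4 NDC80 complex subunits (left) and of separase, securin, Cdc20 and Ube2c (right) in each library, with lines for group means. Spc25 and Pttg1 keep levels of 18.5 and 26.4 TPM with 4-OI while the genes plotted beside them fall.

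All 10 genes of kinesins and spindle proteins fell, and 9 of them lay between -2.10 and -2.63. Nusap1, a microtubule-binding protein near chromosomes, went from 41.9, 48.2 and 46.1 to 10.1, 8.72 and 10.6 CPM (log2 fold change -2.21 ± 0.11; edgeR adjusted p = 4.11e-06). Kif11, the motor that pushes spindle poles apart, and Tpx2, which activates Aurora A, fell 4.48-fold and 4.53-fold. Kif20a, a motor of the central spindle, went from 7.91, 6.01 and 7.51 to 0.868, 1.52 and 0.988 CPM (log2 fold change -2.63 ± 0.22; edgeR adjusted p = 4.94e-05). Its value is uncertain because 60.6% of its exon bases lie opposite Cdc23, and the strand setting of the counting is not given in the sources used here. Hmmr, a spindle-binding protein also known as a hyaluronan receptor, stood apart from the class, from 31.3, 24.5 and 25.9 to 14.6, 13.8 and 13.3 CPM (log2 fold change -0.97 ± 0.11; edgeR adjusted p = 2.86e-04).

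The cytokinesis genes fell as a tight group of 3. Racgap1, which forms the centralspindlin complex with Kif23, went from 27.2, 29.3 and 27.6 to 5.81, 6.30 and 6.59 CPM (log2 fold change -2.17 ± 0.09; edgeR adjusted p = 2.51e-06), and Kif23 fell 5.53-fold. Anln, the gene of anillin in the contractile ring, went from 31.6, 27.1 and 24.2 to 5.53, 5.25 and 5.15 CPM. Ect2, which activates RhoA at the cleavage site, went from 18.6, 15.6 and 16.3 to 4.07, 4.20 and 4.00 CPM. No library of one group came near the other group for any of the 3.

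All 5 genes of chromosome structure fell. Top2a, the topoisomerase that untangles sister chromatids, went from 166, 129 and 128 to 29.9, 30.2 and 27.8 CPM (log2 fold change -2.26 ± 0.12; edgeR adjusted p = 6.64e-06). The condensin ATPase genes parted, with Smc2 at -1.93 ± 0.14 and Smc4 at -1.10 ± 0.09. Smc4 went from 255, 214 and 225 to 108, 102 and 113 CPM. It remained well expressed with 4-OI, at 25.3 TPM against 2.87 TPM for Smc2. With IFN-γ alone Smc4 was already the higher, at 71.9 TPM against 14.5 TPM for Smc2. The condensin I subunit genes Ncapd2 and Ncapg fell 3.97-fold and 3.92-fold, though 30.7% of the exon bases of Ncapg lie opposite Lcorl.

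Mki67, the gene of the Ki-67 antigen used to mark cycling cells, stood at 268, 139 and 143 CPM with IFN-γ and at 40.5, 35.7 and 33.1 CPM with 4-OI. IFN-γ replicate 1 was almost 2 times as high as the other IFN-γ libraries, and all 3 were far above those with 4-OI (log2 fold change -2.33 ± 0.26; edgeR adjusted p = 2.09e-04). Foxm1, the transcription factor of the late cell cycle genes, went from 11.1, 8.62 and 8.87 to 2.06, 2.28 and 1.81 CPM (log2 fold change -2.21 ± 0.16; edgeR adjusted p = 2.21e-05).

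IFN-γ replicate 1 was above the mean of its group for 31 of the 48 members, with a median deviation of 0.05 on the log2 scale. Its excess over the other IFN-γ libraries went with gene length, the merged exon bases of a gene in the deposited tables. Spearman's rho was 0.77 across the 48 members and 0.63 across all 14011 tested genes, a description over genes of the same libraries. For the fold change with 4-OI, the rho with length was -0.15 across members and 0.02 without that library. Whether differences linked to length add to the fall was not tested. The longer 24 members had a median of -2.12 and the shorter 24 one of -2.18. Without IFN-γ replicate 1, the same counts of 46 lower and 2 higher were found, with a median of -2.08.

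Outside the 48, genes of the same processes mostly fell, with medians closer to 0. The counts of calls in this and the following lists stand beside the 25.4% called lower and 22.7% called higher among all genes tested. Of 36 other kinetochore and centromere genes, 29 were called lower and 2 higher, and the median was -1.14. Ska2, of the complex that tracks microtubule ends, fell 4.40-fold. Zwint, a kinetochore scaffold protein, was the marked exception, from 70.3, 80.6 and 84.4 to 257, 268 and 283 CPM, a rise of 3.43-fold with groups far apart (log2 fold change 1.78 ± 0.10; edgeR adjusted p = 6.18e-06). Mis12 also rose, by 0.25 on the log2 scale (edgeR adjusted p = 0.0368). It was not called in 6 alternatives nor at an adjusted p of 0.01, the former including those without replicate 2 or 3 of either group, and total-count scaling gave -0.0077.

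Of 21 other spindle genes, 18 were called lower and 1 higher, and the median was -1.66. Tacc3, a spindle stabiliser, fell 4.41-fold and the kinesin gene Kif18b 6.45-fold, while Kif2a, a microtubule-depolymerising kinesin that also works outside mitosis, rose 1.33-fold, a call lost with total-count scaling. Of 10 other cytokinesis genes, 8 were called lower and 1 higher, and the median was -1.79. Cep55, which recruits the machinery of abscission, fell 5.38-fold and Iqgap3 3.51-fold, and Rhoa rose 1.24-fold (edgeR adjusted p = 0.0358), which was not called in 7 alternatives nor at an adjusted p of 0.01, the former including those without IFN-γ replicate 3 or any 1 library with 4-OI. Of 13 regulators of mitotic entry, 9 fell and 4 were not called, with a median of -1.58, Cdca2 falling 4.98-fold and Pbk 4.05-fold.

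Of 17 subunits and regulators of the APC/C, 2 fell and 2 rose, with a median of 0.07. With TMM factors both counts were smaller shares than the 25.4% lower and 22.7% higher among all genes tested. Under total-count scaling 6 fell and 2 rose, with a median of -0.19. Leaving out IFN-γ replicate 1 together with 4-OI replicate 3 gave 3 lower and 5 higher, with a median of -0.02. Fzr1, which encodes CDH1, the activator of the APC/C in late mitosis and G1, rose from 29.7, 32.2 and 30.2 to 42.9, 44.6 and 44.4 CPM (log2 fold change 0.52 ± 0.08; edgeR adjusted p = 0.00103), where Cdc20, the activator used at anaphase, fell 5.88-fold. The subunit gene Anapc15 fell 1.52-fold. Of 13 other condensin and cohesin genes, 7 fell and 6 were not called, with a median of -0.38. Under total-count scaling 10 fell, with a median of -0.65, and without IFN-γ replicate 1, 8 fell and 2 rose, with a median of -0.22. The list was led by Ncaph, a condensin I subunit, and Cdca5, the gene of sororin, which fell 3.82-fold and 2.83-fold.

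Among 16 genes of the MuvB, DREAM, MYB and NF-Y factors, 8 fell and 2 rose, beside 25.4% and 22.7% of all genes tested. Their median was -0.17, or -0.43 under total-count scaling, and the largest fall was that of Rbl1, at -0.83. Mybl2, the gene of MYBL2, is in this list and thus lay above -0.83, where Foxm1 stood at -2.21. Tfdp1, a partner of E2F proteins, fell 1.43-fold and Rbl1, which encodes the pocket protein p107, 1.78-fold. The MuvB subunit genes Lin37 and Lin52 rose 1.49-fold and 1.34-fold, both calls lost with total-count scaling and that of Lin52 also at an adjusted p of 0.01 and without IFN-γ replicate 3 or 4-OI replicate 1 or 3. Of 7 inhibitors of cyclin-dependent kinases, 2 rose and 2, Cdkn2c and Cdkn2d, fell, shares near the 22.7% and 25.4% of all genes tested. Cdkn1c, the gene of p57, rose from 0.514, 0.815 and 0.976 to 8.57, 8.76 and 10.2 CPM (log2 fold change 3.57 ± 0.21; edgeR adjusted p = 8.42e-06). Cdkn2b, the gene of p15, rose from 3.80, 5.84 and 5.31 to 22.6, 23.5 and 31.8 CPM (log2 fold change 2.38 ± 0.20; edgeR adjusted p = 4.31e-05). Both groups lay far apart for these 2 genes. The abundant Cdkn1a and Cdkn1b, genes of p21 and p27, stood at 0.03 (edgeR adjusted p = 0.849) and -0.08 (edgeR adjusted p = 0.512) on the log2 scale and were not called.

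Earlier steps of the cell cycle were lower as well, where 25.4% of all genes tested were called lower and 22.7% higher. Of 11 G1 cyclins, G1 kinases and activating E2F factors, 8 fell and 3 were not called, with a median of -0.89, Ccnd2 falling 3.83-fold and Ccnd3 2.44-fold. Of 43 genes of DNA replication and S phase, 33 were called lower and 1 higher, and the median was -0.97. Rrm2 and Uhrf1 fell 4.85-fold and 5.47-fold, as much as the mitotic genes, and Cdt1 rose 1.24-fold, which was not called in 6 alternatives nor at an adjusted p of 0.01, the former including those without replicate 2 or 3 of either group. Called and at least 2-fold lower were 21 of 43 replication genes and 43 of 48 mitotic genes, both beside the 11.1% of all genes tested. The difference between these lists was not tested.

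**Figure D4:**
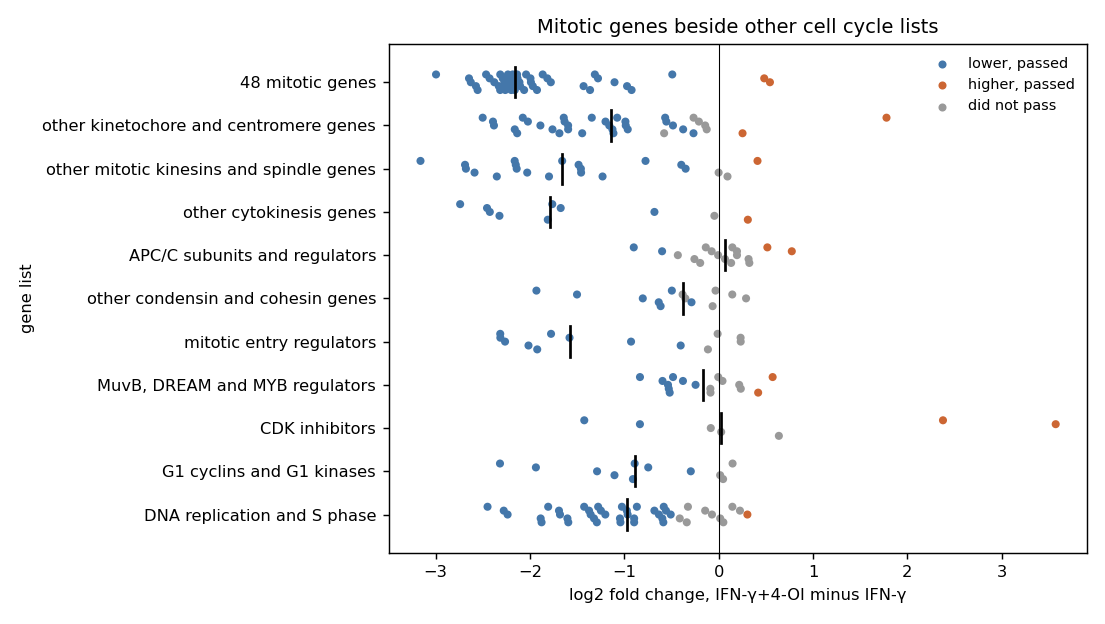
Log2 fold change (horizontal axis) of each tested gene in the 48 members and in 10 other cell cycle lists, coloured by call, with black lines for list medians. The members lie furthest left with a median of -2.16, replication genes have one of -0.97 and APC/C genes one of 0.07, which is -0.19 under total-count scaling.

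Markers of several cell types moved with the mitotic genes, and their part in the result was not tested. Their counts stand beside the 25.4% called lower and 22.7% called higher among all genes tested. All 10 markers of bone marrow precursors fell, with a median of -1.64. Their summed level was 203 to 208 CPM with IFN-γ and 66.5 to 74.6 CPM with 4-OI. Flt3 is among them and is also counted in the list of conventional dendritic cells, so these lists are not separate. Mpo, the myeloperoxidase gene of granulocyte and monocyte precursors, fell from 8.80 to 0.967 CPM and Cd34, a stem and progenitor cell antigen, from 8.80 to 1.40 CPM. Of 5 tested mast cell and basophil markers all fell (223 to 262 CPM summed over the 8 listed, against 67.4 to 73.4), with Mcpt4 at 0 in every library. All 5 tested eosinophil markers fell (168 to 226 CPM summed over 6, against 61.0 to 70.4). The count filter can be met by the IFN-γ libraries alone, which favours falls among low markers that were tested.

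Of 8 monocyte markers, 6 were called lower and 1 higher (1196 to 1556 CPM summed, against 450 to 626). Their log2 fold changes ran from -2.98 to 4.06, so the lower sum does not hold for each marker. Of 9 macrophage markers, 1 fell, 2 rose and the median log2 fold change was -0.31 (2117 to 2191 CPM, against 2694 to 2833). Under total-count scaling 2 of them fell and 1 rose, with a median of -0.58. Of 9 tested markers of conventional dendritic cells, 6 fell and 1 rose (1227 to 1265 CPM over 10, against 926 to 946), with log2 fold changes of -1.88 to 1.90. The 2 macrophage markers that rose, Adgre1 and Csf1r, were also the 2 most abundant of the list, and the list's median was -0.60 when IFN-γ replicate 1 and 4-OI replicate 3 were left out together. Of 9 neutrophil markers, 4 fell and 2 rose, or 7 and 1 under total-count scaling and 6 and 2 without IFN-γ replicate 1 (3554 to 4282 CPM, against 3942 to 4633). For macrophage and neutrophil markers, the share that rose with TMM factors was near the 22.7% of all genes tested. Itgax, the CD11c gene by which cultured dendritic cells are recognised, was present in all libraries and fell from 514 to 214 CPM, and Cd209a stood near 0, at 0.0650 and 0.0362 CPM.

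Markers of other blood and connective tissue cells were low. B cell markers summed to 9.18 to 10.1 CPM with IFN-γ and 7.43 to 8.65 with 4-OI, with a median log2 fold change of -0.38. With TMM factors 0 of these 5 genes were called lower or higher, and under total-count scaling 4 were called lower. T and NK cell markers summed to 8.70 to 12.5 and 4.81 to 6.55 CPM, with both tested markers of the 7 lower. Erythroid markers summed to 2.37 to 4.42 and 1.30 to 1.77 CPM, with both tested markers of the 7 lower. At such levels a marker can enter the test through its IFN-γ counts alone, so these counts of lower markers show little. Stromal markers summed to 4.11 to 41.3 CPM with IFN-γ, the highest in replicate 1, and to 1.56 to 2.22 CPM with 4-OI, with 1 of 2 tested markers lower.

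**Figure D5:**
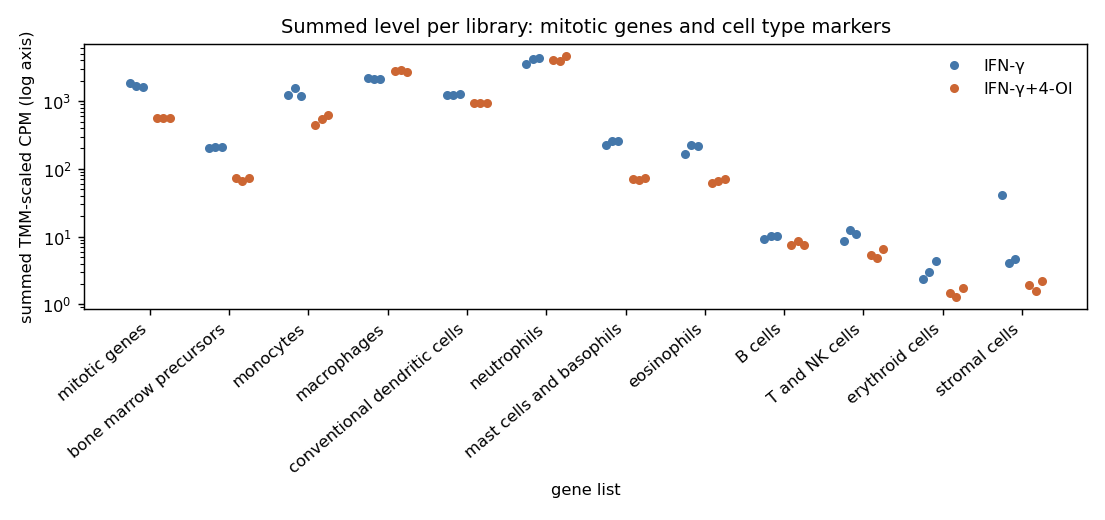
Summed TMM-scaled CPM (log axis) of the 48 mitotic genes and of 11 lists of cell type markers in each library, blue for IFN-γ and orange for IFN-γ+4-OI. Precursor markers fall from 203 to 208 CPM to 66.5 to 74.6 CPM, while the macrophage sum, carried by Adgre1 and Csf1r, is higher with 4-OI although the list's median log2 fold change is -0.31, and the neutrophil sums overlap.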

How the data were processed

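The authors deposited 1 table per library with counts, TPM and FPKM per gene; the counts were used as deposited. HISAT2 and the build mm10 appear in the submitters' processing notes. Which program counted reads, with which annotation and strand setting, is not given in the sources used here. Deposited TPM and FPKM followed from counts and gene lengths for 100% of values (relative tolerance 0.0001); TPM served to compare levels between genes, and FPKM was not used further. Of the 48 members, 1 shared a start or end with the GRCm38 RefSeq table, so coordinates here are those of RefSeq promoters on GRCm38.p6, not of the deposited tables.

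Counts were tested with edgeR 4.0.16 in R 4.3.3 (filterByExpr with a minimum count of 10, TMM factors, robust quasi-likelihood test, no block). The test was also run on simulated counts in which few genes changed, in random directions. That setting differs from these data, so it cannot check the scaling or the replicates. Alternatives were RLE, upper quartile and no factors, no filter, at least 1 CPM in 3 libraries, limma-voom (limma 3.58.1), DESeq2 1.42.0, an adjusted p of 0.01, the replicate block, leaving out each library, and leaving out IFN-γ replicate 1 and 4-OI replicate 3 together.

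Members and lists were chosen with earlier results of these data known. Library values are given, in each class, for the members with the highest mean TPM and with the largest and smallest change and for each member not called lower; of other lists, the 2 smallest adjusted p and members called against most of the list are named. Others were named after their values were seen. Of the listed symbols, 1, Tpsab1, is not analysed here.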

Additional observations from a re-analysis of the deposited data

How the results depend on the processing

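The 46 members stayed lower in all 16 alternatives, which give 46 in each, with medians of -2.42 (total counts) to -2.07. The count of members that rose was 2, and 1 at an adjusted p of 0.01, with total-count scaling and among the fits without single libraries (1 to 2). Of 720 member values recomputed over the 15 alternatives tested at an adjusted p of 0.05, 718 kept direction and call, and 2, both of Pttg1, lost the call. Of 390 for the 26 other named genes, 24 lost the call and 1 reversed, Mis12 at -0.0077 with total counts. That scaling gave 5452 genes lower and 1719 higher, a share of higher calls of 24.0% against 47.2%, and an adjusted p of 0.01 gave 2079 higher. Equal replicate numbers are not labelled as pairs. Correlations of deviations for equal numbers were 0.26, -0.10 and 0.19, which cannot decide the question with 3 libraries in a group. With the replicate block 7513 genes were called, against 6736 without it, with 46 members lower and 2 higher. Without single libraries, 5275 to 7835 genes were called. Without IFN-γ replicate 1 and 4-OI replicate 3, 9296 were. Depth limits Cdc25c, Kif20a and Nek2 most, with as few as 11, 16 and 17 counts in a library.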
